A study of Mus musculus with 6 samples.

Results

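The Wnt pathway was examined through 41 genes for its ligands, receptors, secreted inhibitors and targets, chosen by gene symbol from a deposited table of gene expression. Of the 41 symbols, 40 were found among the 33682 rows of the table, each once, and Znrf3 was not analysed here. The genes were grouped by role into 11 ligands and ligand helpers, 14 receptors, 8 secreted inhibitors and 8 targets or effectors. The 6 RNA sequencing libraries came from neonatal rat heart cells (NRCMs in the labels, of wild-type genotype) that were kept in conditioned medium, the fluid taken off another culture. In 3 libraries the medium came from ALOX5-/--BMMCs, bone marrow-derived mast cells lacking Alox5, and is called Alox5KO medium below. In the other 3 it came from WT-BMMCs and is called WT medium. The mast cells of both groups had been treated with TNF-a, so no library here shows the heart cells without an activated mast cell medium. Alox5 encodes 5-lipoxygenase, which begins the synthesis of leukotrienes, and the study asks how mast cell leukotrienes act on heart fibroblasts.

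Wnt proteins are secreted lipid-modified ligands that bind Frizzled receptors at the cell surface. With the coreceptors Lrp5 and Lrp6 they keep beta-catenin from being broken down, and beta-catenin then works with TCF and LEF factors in the nucleus to switch on targets such as Axin2, while Ror and Ryk receptors carry signals that do not need beta-catenin. R-spondins acting through Lgr receptors raise the amount of Frizzled at the surface, and Sfrp, Dkk and Naked cuticle proteins damp the signal. In the heart the pathway is quiet in the healthy adult and is known for its return in fibroblasts after injury.

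The sample labels name rat cardiomyocytes while giving the mouse as organism, and the series text names fibroblasts (NRCFs); the gene identifiers of the table are rat ones. The 16 fibroblast markers summed to between 12478 and 14139 FPKM in Alox5KO-medium libraries and between 12969 and 13664 FPKM in WT-medium libraries, and the 13 cardiomyocyte markers to between 105 and 132 FPKM with Alox5KO medium and between 31.9 and 56.4 FPKM with WT medium. Within that sum 4 of the 16 fibroblast markers rose and 5 fell (limma, BH-adjusted), or 56.25%, against 20.7% called of all genes tested. The matrix proteoglycan gene Dcn, named after its values were seen, had 134 ± 66.3 FPKM with Alox5KO medium and 2219 ± 711 FPKM with WT medium (SD, n = 3 each). FPKM is the number of fragments per kilobase of gene, scaled to sequencing depth. Of the cardiomyocyte markers the most abundant was the troponin gene Tnnt2. It had 79.9 ± 10.6 FPKM with Alox5KO medium and 23.0 ± 6.92 FPKM with WT medium (SD, n = 3 each). In that list only Myl2, the ventricular myosin light chain, was at 0 in all 6 libraries. A listed 0 does not show absence, since the ribosomal protein gene Rpl8 was listed at 0 in 4 libraries. Libraries held between 13284088 and 15766187 reads. On the second principal component, with 11.7% of the variance, WT-medium replicate 3 lay at a score of 25.0 and Alox5KO-medium replicate 2 at -17.0, the 2 ends of the axis. The labels do not say whether replicates were separate cultures. A p-value here sets the group difference against the scatter of these samples within groups, and that scatter may be technical.

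Within several families of the pathway, close relatives moved in opposite directions. With Alox5KO medium Wnt2 and Rspo3 fell while Wnt5a and Rspo1 rose. Fzd7 fell while Fzd2, Fzd3 and Fzd6 rose, and Sfrp4 fell while Sfrp1 rose. The calls of Sfrp4 and Fzd3 were lost in some alternative runs. Dkk3, of the Dickkopf family and grouped here with the inhibitors, also rose. The feedback inhibitor Nkd2 had the largest rise of the 29 genes tested. Those 29 had a mean of at least 1 FPKM over the 6 libraries. For 5 of them, Wnt2, Rspo3, Fzd5, Tcf7 and Nkd2, the mean of a single group lay under that level, so they passed through their higher group. The same held for 568 of the 12341 genes tested. By limma with Benjamini-Hochberg (BH) adjustment over all 12341 genes tested, 10 of the 29 rose and 4 fell at an adjusted p under 0.05, or 48.3%, against 20.7% called of all genes tested (10.0% higher and 10.6% lower). Their median log2 fold change was 0.35, against -0.00082 for all genes tested. A change of at least 1 log2 unit was found for 8 of the 29, or 27.6%, against 6.39% of all genes tested. The groups did not overlap for 21 of the 29, 17 higher and 4 lower with Alox5KO medium, beside 37.6% of all genes tested (18.8% in each direction). The Wnt genes were chosen with earlier results of these data known, so these shares describe the list and do not test it. In cultures sequenced in bulk, fewer cells of a type and less RNA per cell cannot be told apart. Libraries with Alox5KO medium also differed in smooth muscle and pericyte markers, of which 8 of 11 tested rose and 2 fell, with summed levels of 4976 to 6828 FPKM against 1096 to 1173 FPKM with WT medium, and none of the 12 was at 0 throughout. Cardiomyocyte markers rose for 4 of 8 tested, and the epicardial and mesothelial markers fell for 3 of 6 tested. That is 50% called in each list, against 20.7% of all genes tested. The epicardial and mesothelial sums were 33.0 to 41.02 FPKM with Alox5KO medium and 103 to 138 FPKM with WT medium. The largest part with WT medium was Aldh1a2, at 79.2 FPKM, against 7.62 FPKM with Alox5KO medium. Wt1, Tbx18 and Lrrn4 were the 3 that did not pass. Mast cell markers summed to 22.3 to 32.3 FPKM with Alox5KO medium and 43.4 to 61.4 FPKM with WT medium, mostly from the protease gene Cpa3, with Tpsb2, Fcer1a and Ms4a2 at 0. The part of these cell types, and of the fibroblast markers above, in the Wnt results was not tested.

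**Figure D1:**
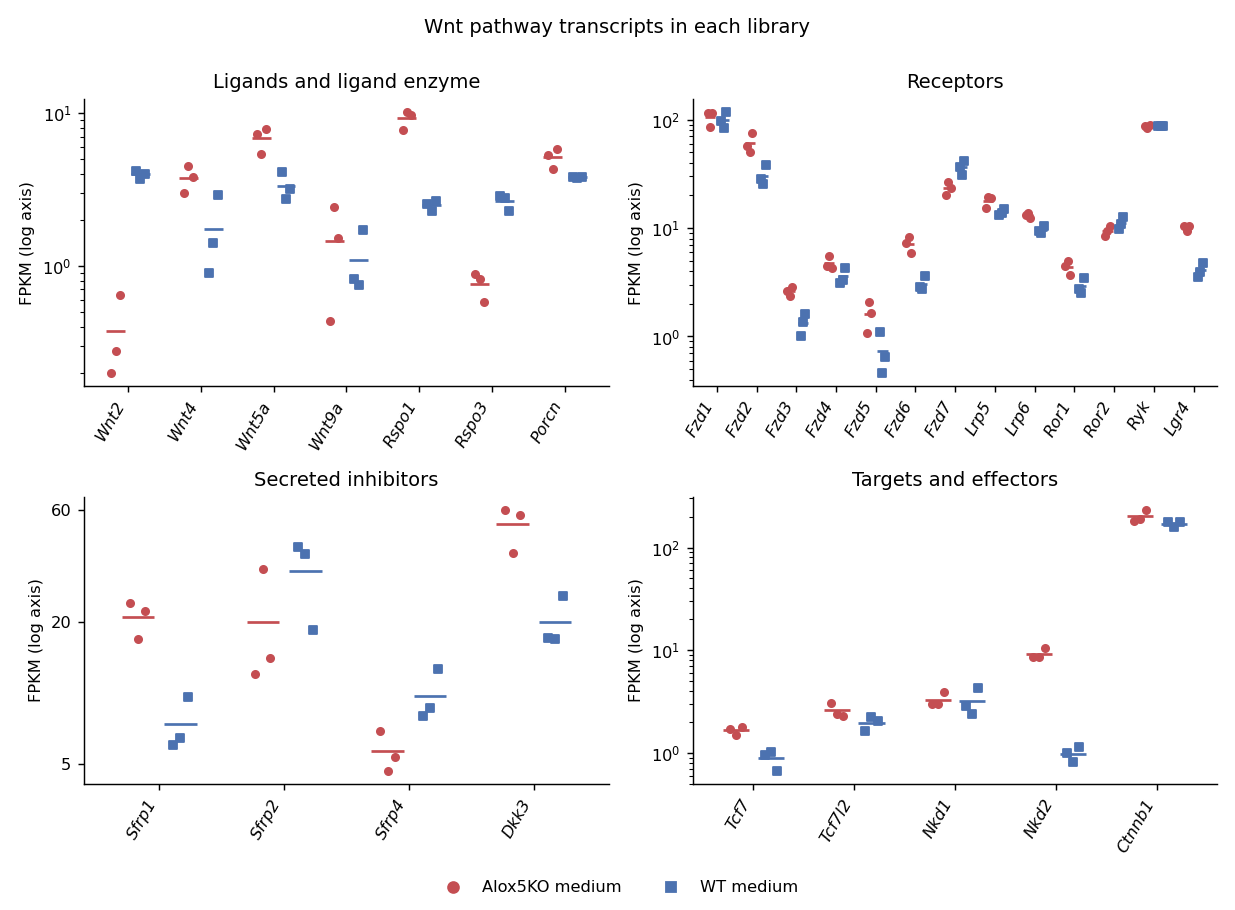
FPKM (log axis) of the 29 tested Wnt pathway genes in each library, by role, with Alox5KO medium as red circles and WT medium as blue squares (n = 3 each); short lines are group means. The groups are widely apart for Wnt2, Rspo1 and Nkd2, and lie on each other for Fzd1 and Ryk.

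By mean FPKM over the 6 libraries, Ctnnb1 (186 FPKM) led, followed by Fzd1 (102 FPKM), Ryk (86.9 FPKM), Fzd2 (45.7 FPKM), Dkk3 (36.2 FPKM), Fzd7 (29.9 FPKM) and Sfrp2 (26.6 FPKM). The ligands were lower, with Rspo1 at 5.87 FPKM and Wnt5a at 5.11 FPKM the highest of them. Receptors and secreted inhibitors were thus the abundant members, beside beta-catenin itself.

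Among the Wnt ligands, Wnt2 fell and Wnt5a rose. Wnt2, a ligand of the beta-catenin branch that is made by mesenchymal cells of the heart and lung, had 0.198, 0.279 and 0.646 FPKM in Alox5KO-medium libraries, against 4.17, 3.72 and 4.01 FPKM in WT-medium libraries. Every Alox5KO-medium library lay under every WT-medium library, with 23 reads in all with Alox5KO medium and 220 with WT medium. Its mean with Alox5KO medium was 0.0944 times that with WT medium, and the log2 fold change of FPKM + 1 was -1.87 with a standard error of 0.17 (limma, BH-adjusted p = 9.96e-05). Because Wnt2 was low, the added 1 holds the size of this value down, and it was -3.21 with a pseudocount of 0.1 and -3.46 by limma-voom on the reads. The gene (ENSRNOG00000051905) lies on chromosome 4 from 45292437 to 45332420, minus strand, in the table's coordinates.

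Wnt5a is the main ligand of the beta-catenin-independent branch, acting through Ror receptors. It had 7.27, 5.42 and 7.92 FPKM with Alox5KO medium, against 4.13, 2.72 and 3.19 FPKM with WT medium, with no overlap between groups. Its log2 fold change was 0.86 ± 0.17 (SE; limma, BH-adjusted p = 0.0071). Wnt4, a ligand of kidney and gonad development that is also induced in fibrosis, had 2.99, 4.48 and 3.81 FPKM with Alox5KO medium, against 0.891, 1.41 and 2.91 FPKM with WT medium. The groups touched closely at WT-medium replicate 3, and the log2 fold change of 0.85 did not pass the test (limma, BH-adjusted p = 0.054). Without WT-medium replicate 3 it was 1.14 and passed, with an adjusted p of 0.0048 (limma, BH), and with that library kept it passed under quantile normalization at 0.042 and with a replicate block at 0.015. Wnt9a varied widely within groups, from 0.433 to 2.43 FPKM with Alox5KO medium and from 0.749 to 1.70 FPKM with WT medium, and did not pass the test (limma, BH-adjusted p = 0.76).

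The summed FPKM of the 8 Wnt genes was 11.9, 13.5 and 15.0 FPKM with Alox5KO medium and 10.6, 9.42 and 12.7 FPKM with WT medium, so the groups overlapped. Wnt2 made up 2.68 ± 1.43% of that sum with Alox5KO medium and 36.8 ± 4.45% with WT medium (SD, n = 3 each). Wnt5a made up 51.4 ± 10.6% with Alox5KO medium and 31.0 ± 7.08% with WT medium (SD, n = 3 each), and Wnt4 27.9 ± 4.55% with Alox5KO medium and 15.4 ± 7.31% with WT medium (SD, n = 3 each). Wnt5a thus had between 12.3 and 36.7 times the FPKM of Wnt2 in each Alox5KO-medium library, and between 0.733 and 0.989 times in each WT-medium library. The ordering of the 2 ligands was the same in all 3 libraries of a group. With WT medium they lay close, at 4.13 FPKM for Wnt5a and 4.17 FPKM for Wnt2 in replicate 1. With Alox5KO medium the ratios rest on 4, 6 and 13 reads of Wnt2.

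The R-spondin pair also moved in opposite directions. Rspo1 had 7.81, 10.1 and 9.76 FPKM with Alox5KO medium, against 2.54, 2.27 and 2.68 FPKM with WT medium, a log2 fold change of 1.54 ± 0.13 (SE; limma, BH-adjusted p = 6.42e-05). Rspo3, the R-spondin known for vessel growth, had 0.879, 0.823 and 0.580 FPKM with Alox5KO medium, against 2.87, 2.79 and 2.30 FPKM with WT medium, a log2 fold change of -1.05 ± 0.16 (SE; limma, BH-adjusted p = 0.0017). With a pseudocount of 0.1 the fall of Rspo3 was -1.69 on the log2 scale, and by limma-voom -1.77. Neither R-spondin had a library of one group inside the range of the other. The shares and sums of this pair leave out Rspo4, which is given below. Rspo1 made up 92.3 ± 2.26% of the FPKM of the pair with Alox5KO medium and 48.6 ± 4.69% with WT medium (SD, n = 3 each), and the summed level was 9.995 ± 1.17 FPKM with Alox5KO medium and 5.15 ± 0.229 FPKM with WT medium (SD, n = 3 each). Rspo1 (ENSRNOG00000009656) lies on chromosome 5 from 142986526 to 143007831 and Rspo3 (ENSRNOG00000011568) on chromosome 1 from 30681681 to 30766860, both on the plus strand of the table's coordinates.

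Porcn, the enzyme that attaches the lipid Wnt proteins need for secretion, had 5.31, 4.31 and 5.85 FPKM with Alox5KO medium, against 3.83, 3.77 and 3.84 FPKM with WT medium. The log2 fold change of 0.35 did not pass the test (limma, BH-adjusted p = 0.10), although it did without Alox5KO-medium replicate 2, with an adjusted p of 0.047 (limma, BH). Wls, which carries lipidated Wnt proteins to the cell surface, stands in a list of further ligand and secretion genes. It had 145, 133 and 137 FPKM with Alox5KO medium, against 78.0, 79.0 and 81.3 FPKM with WT medium, a log2 fold change of 0.79 (limma, BH-adjusted p = 0.000288). The other tested gene of that list was Rspo4, at 2.12 ± 1.54 FPKM with Alox5KO medium and 2.01 ± 0.68 FPKM with WT medium (SD, n = 3 each), and 12 of the 14 lay under the filter.

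**Figure D2:**
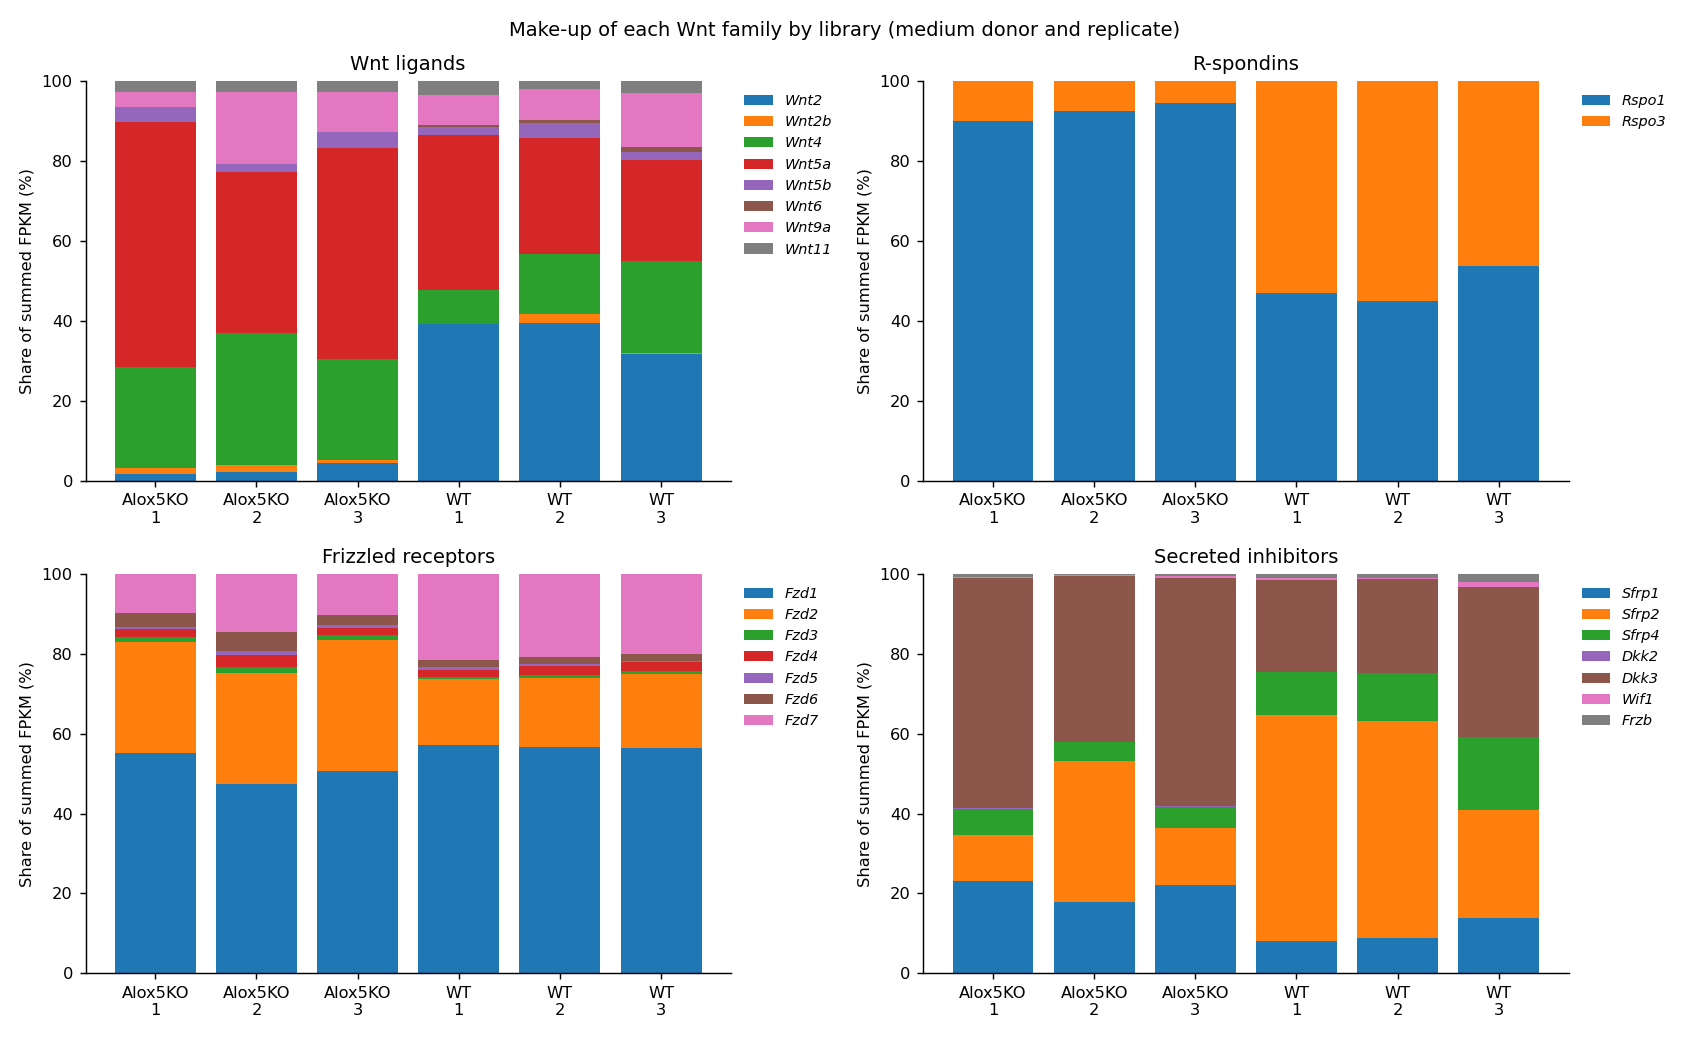
Share of the summed FPKM of the examined genes of each family (percent, vertical axis) taken by each gene in the 3 Alox5KO-medium and 3 WT-medium libraries. The R-spondins shown are Rspo1 and Rspo3 only, without Rspo4. Wnt2 and Rspo3 shrink with Alox5KO medium, Fzd2 takes more and Fzd7 less, and Sfrp2 takes 35.3% in Alox5KO-medium replicate 2 and 26.8% in WT-medium replicate 3, unlike the other libraries of their groups.

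Of the 14 receptor genes 13 were tested, of which 5 rose, 1 fell and 7 did not pass, or 46.2% called against 20.7% of all genes tested, with a median log2 fold change of 0.41. The rises numbered 3 without WT-medium replicate 1 or without WT-medium replicate 2. Fzd1 was the most abundant Frizzled gene and did not differ between groups beyond their spread, with 115, 85.6 and 116 FPKM with Alox5KO medium and 97.3, 83.9 and 117 FPKM with WT medium (log2 fold change 0.08, limma, BH-adjusted p = 0.76). Fzd2, a receptor for Wnt5a among others, had 57.4, 50.1 and 74.9 FPKM with Alox5KO medium, against 28.1, 25.3 and 38.2 FPKM with WT medium. Its log2 fold change was 0.97 ± 0.19 (SE; limma, BH-adjusted p = 0.0083). Fzd7, a receptor for ligands of both branches, moved the other way, with 20.2, 26.4 and 23.5 FPKM with Alox5KO medium, against 37.0, 30.8 and 41.7 FPKM with WT medium. It fell by 0.62 on the log2 scale with a standard error of 0.14 (limma, BH-adjusted p = 0.012). Fzd2 stood above Fzd7 in every Alox5KO-medium library, at 1.90 to 3.19 times its FPKM, and below it in every WT-medium library, at 0.759 to 0.916 times.

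Fzd6, which can restrain the beta-catenin branch and acts in planar cell polarity, had 7.31, 8.28 and 5.89 FPKM with Alox5KO medium, against 2.86, 2.75 and 3.59 FPKM with WT medium. The log2 fold change was 1.00 ± 0.15 (SE; limma, BH-adjusted p = 0.0016). Fzd3, another polarity receptor, had 2.61, 2.38 and 2.86 FPKM with Alox5KO medium and 1.01, 1.36 and 1.61 FPKM with WT medium, and rose by 0.64 (limma, BH-adjusted p = 0.020). The Fzd3 call was lost without Alox5KO-medium replicate 1, Alox5KO-medium replicate 3, WT-medium replicate 1 or WT-medium replicate 2, with BH-adjusted limma p of 0.061, 0.072, 0.084 and 0.054. By limma-voom on all libraries the log2 fold change of Fzd3 was 1.02. Fzd4, the norrin receptor, had 4.75 ± 0.672 FPKM with Alox5KO medium and 3.59 ± 0.637 FPKM with WT medium (SD, n = 3 each). Fzd5 had 1.60 ± 0.499 FPKM with Alox5KO medium and 0.731 ± 0.324 FPKM with WT medium (SD, n = 3 each). Both had overlapping groups and did not pass (limma, BH-adjusted p = 0.16 for Fzd4 and 0.094 for Fzd5). Fzd8 was listed at 0 in all 6 libraries, which does not show that it was absent, since the ribosomal protein gene Rpl8 was listed at 0 in 4 of them. Summed over the family, Frizzled transcripts reached 206 ± 24.4 FPKM with Alox5KO medium and 175 ± 29.9 FPKM with WT medium (SD, n = 3 each), with overlap. Fzd2 took 29.4 ± 2.89% of that sum with Alox5KO medium and 17.3 ± 1.01% with WT medium, and Fzd7 11.5 ± 2.70% with Alox5KO medium and 20.9 ± 0.777% with WT medium (SD, n = 3 each).

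Lgr4, the R-spondin receptor, rose with Rspo1. It had 10.5, 9.33 and 10.4 FPKM with Alox5KO medium, against 3.55, 3.95 and 4.79 FPKM with WT medium, with no overlap. The log2 fold change was 1.12 ± 0.13 (SE; limma, BH-adjusted p = 0.000325). The coreceptor Lrp6 had 13.2, 13.9 and 12.4 FPKM with Alox5KO medium, against 9.46, 8.999 and 10.4 FPKM with WT medium, and rose by 0.41 (limma, BH-adjusted p = 0.021). The Lrp6 call was lost without Alox5KO-medium replicate 1, Alox5KO-medium replicate 2, WT-medium replicate 1 or WT-medium replicate 2, with BH-adjusted limma p of 0.054, 0.060, 0.086 and 0.089. Its relative Lrp5 had 15.5, 19.2 and 19.1 FPKM with Alox5KO medium and 13.2, 13.8 and 15.0 FPKM with WT medium, groups that did not overlap, with a log2 fold change of 0.33 that missed the threshold (limma, BH-adjusted p = 0.072). Lrp5 passed without Alox5KO-medium replicate 1 at 0.030, and by limma-voom at 0.039 (BH).

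The 3 Ror and Ryk receptors, which signal without beta-catenin, did not pass the test. The polarity receptors Fzd3 and Fzd6 rose, as given above. Ryk, an abundant receptor with a kinase-like domain, had the smallest fold change of the 29 genes, at 86.5 ± 3.13 FPKM with Alox5KO medium and 87.2 ± 0.838 FPKM with WT medium (SD, n = 3 each), a log2 fold change of -0.01 ± 0.09 (SE; limma, BH-adjusted p = 0.94). Ror2, a Wnt5a receptor, had 9.39 ± 0.932 FPKM with Alox5KO medium and 11.1 ± 1.46 FPKM with WT medium (SD, n = 3 each) and did not pass (limma, BH-adjusted p = 0.28). Ror1 had 4.49, 4.94 and 3.70 FPKM with Alox5KO medium, against 2.77, 2.51 and 3.45 FPKM with WT medium. These did not overlap, but the log2 fold change of 0.46 did not pass (limma, BH-adjusted p = 0.061). Ror1 passed without WT-medium replicate 3 at 0.039, under quantile normalization at 0.042 and by limma-voom at 0.024 (BH).

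**Figure D3:**
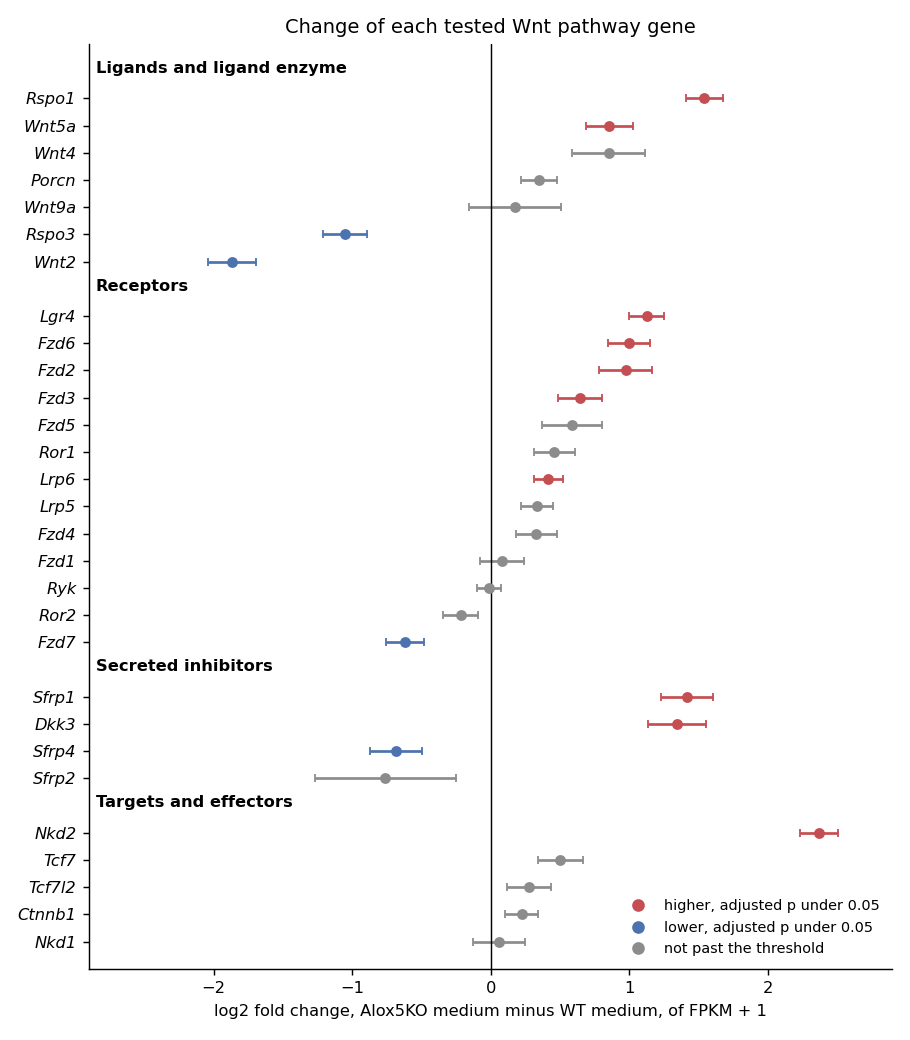
Log2 fold change of FPKM + 1, Alox5KO medium minus WT medium, for the 29 tested Wnt pathway genes grouped by role and ordered by size; bars are the standard error of the limma fit. Red points rose, blue points fell and grey points did not pass an adjusted p of 0.05. Each role but the last holds both red and blue points, and Nkd2 lies farthest to the right at 2.37.

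The secreted inhibitors also differed in direction. Of the 8 genes 4 were tested, of which 2 rose, 1 fell and 1 did not pass. That is 75% called, against 20.7% of all genes tested, but it rests on very few genes. Sfrp1, which binds Wnt ligands outside the cell through a Frizzled-like domain, had 24.1, 17.0 and 22.4 FPKM with Alox5KO medium, against 5.99, 6.45 and 9.64 FPKM with WT medium. It rose by 1.42 on the log2 scale with a standard error of 0.19 (limma, BH-adjusted p = 0.0010), and the groups were well apart. Sfrp4, of the same family, had 6.93, 4.66 and 5.37 FPKM with Alox5KO medium, against 8.004, 8.61 and 12.6 FPKM with WT medium, and fell by 0.68 (limma, BH-adjusted p = 0.031). The Sfrp4 call was lost without the filter on low values at 0.077 and with TPM scaling at 0.060 (limma, BH). It was also lost without Alox5KO-medium replicate 2, Alox5KO-medium replicate 3, WT-medium replicate 2 or WT-medium replicate 3, at 0.094, 0.10, 0.052 and 0.068 (limma, BH). The ratio of Sfrp1 to Sfrp4 varied little within groups, at 3.48, 3.65 and 4.17 with Alox5KO medium and 0.748, 0.749 and 0.762 with WT medium.

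Sfrp2 had the widest spread of the tested inhibitors. Its values were 12.0, 33.8 and 14.2 FPKM with Alox5KO medium and 42.0, 39.1 and 18.5 FPKM with WT medium, so that Alox5KO-medium replicate 2 lay inside the WT range and above WT-medium replicate 3. The log2 fold change of -0.76 had a standard error of 0.51 and did not pass (limma, BH-adjusted p = 0.38). These are the 2 libraries at the ends of the second principal component. Dkk3, a divergent member of the Dickkopf family, was the most abundant of the 8 inhibitors grouped here with Alox5KO medium. It had 60.2, 39.7 and 57.4 FPKM with Alox5KO medium, against 17.2, 17.0 and 26.0 FPKM with WT medium, a log2 fold change of 1.35 ± 0.21 (SE; limma, BH-adjusted p = 0.0036). Dkk3 made up 52.0 ± 9.18% of the summed FPKM of those 8 genes with Alox5KO medium and 28.1 ± 8.21% with WT medium (SD, n = 3 each). Dkk1, the classic blocker of Lrp5 and Lrp6, was listed at 0 in all 6 libraries.

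The tested targets and effectors were 5 of 8, and Nkd2 was the single one to pass. That is 20% of them, about the 20.7% called of all genes tested. Nkd2, which binds Dishevelled and acts as a feedback inhibitor, had 8.61, 8.66 and 10.5 FPKM with Alox5KO medium, against 0.991, 0.814 and 1.14 FPKM with WT medium. That is 1726 reads in all with Alox5KO medium and 165 with WT medium, and a mean level 9.43 times as high with Alox5KO medium. The log2 fold change was 2.37 ± 0.14 (SE; limma, BH-adjusted p = 6.25e-06), and with 1 library left out it stayed between 2.29 and 2.43. The gene (ENSRNOG00000016103) lies on chromosome 1 from 32058044 to 32084877, plus strand, in the table's coordinates. Its relative Nkd1 had 3.02, 2.99 and 3.93 FPKM with Alox5KO medium and 2.86, 2.41 and 4.30 FPKM with WT medium, which overlapped (limma, BH-adjusted p = 0.86). Nkd2 therefore stood at 2.67 to 2.89 times the FPKM of Nkd1 with Alox5KO medium and at 0.264 to 0.346 times with WT medium.

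Beta-catenin itself, Ctnnb1, was the most abundant of the 40 genes, with 180.1, 191 and 231 FPKM with Alox5KO medium and 178, 160.0 and 176 FPKM with WT medium. The log2 fold change of 0.22 did not pass (limma, BH-adjusted p = 0.23). Of the nuclear partners, Tcf7 had 1.70, 1.51 and 1.79 FPKM with Alox5KO medium, against 0.963, 1.03 and 0.670 FPKM with WT medium. The Tcf7 groups did not overlap, but the log2 fold change of 0.50 missed the threshold (limma, BH-adjusted p = 0.062), and it passed with TPM scaling at 0.0495 and by limma-voom at 0.045 (BH). Tcf7l2 had 2.61 ± 0.434 FPKM with Alox5KO medium and 1.97 ± 0.307 FPKM with WT medium (SD, n = 3 each) and did not pass (limma, BH-adjusted p = 0.27).

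Under the abundance filter lay 9 further genes with reads, and Axin2 was the single one called when the filter was dropped. Axin2 is a scaffold of the complex that degrades beta-catenin and the target most often used as a readout of beta-catenin activity. It had 0.314, 0.294 and 0.348 FPKM with Alox5KO medium, against 0.926, 0.838 and 0.954 FPKM with WT medium, from 19, 19 and 21 reads with Alox5KO medium and 52, 44 and 55 reads with WT medium. The groups did not overlap. Fitted without the filter, where 12.1% of 19519 genes were called (5.78% higher and 6.30% lower) and 38 of the Wnt genes were tested, it fell by 0.53 on the log2 scale of FPKM + 1 (limma, BH-adjusted p = 0.020). In that fit the fall was -1.27 with a pseudocount of 0.1 and -1.46 by limma-voom on reads, with adjusted p of 0.021 and 0.0045 (BH). The Axin2 call was lost on leaving out Alox5KO-medium replicate 1, 2 or 3 with BH-adjusted limma p of 0.064, 0.053 and 0.059, and WT-medium replicate 1 or 2 at 0.064 and 0.051. So of the feedback genes, Axin2 was lower with Alox5KO medium in all 3 libraries while Nkd2 was higher in all 3, each against every WT-medium library.

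The other 8 had few reads. The Sfrp relative Frzb had 33, 13 and 21 reads with Alox5KO medium, against 31, 29 and 56 with WT medium, and the TCF partner Lef1 had 33 reads in all with Alox5KO medium and 24 with WT medium. Summed over libraries, Alox5KO medium gave 43 reads and WT medium 40 for the inhibitor Wif1, 52 and 30 for the ligand Wnt5b, and 44 and 33 for Wnt11, in that order of media. Wnt2b had 15 reads with Alox5KO medium and 6 with WT medium, and Dkk2 had 16 with Alox5KO medium and 4 with WT medium. Wnt6 had 0 reads with Alox5KO medium, and 1, 2 and 5 reads with WT medium. In the fit without the filter these 8 did not pass (limma, BH-adjusted p between 0.19 and 0.97), although by limma-voom Wnt6 did at 0.023 (BH).

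**Figure D4:**
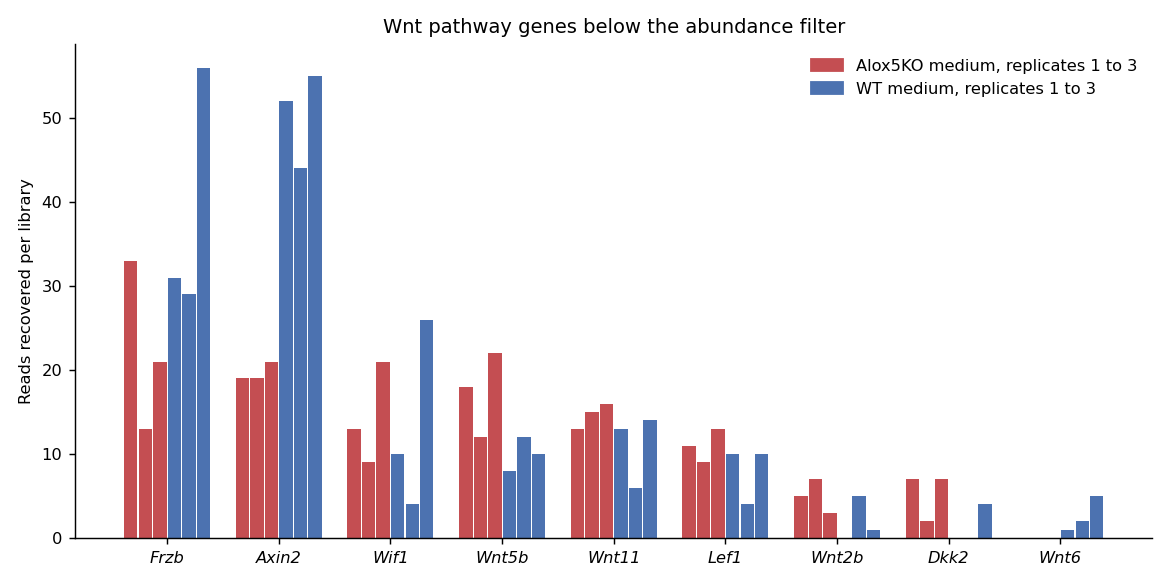
Reads recovered per library (vertical axis) for the 9 Wnt pathway genes with reads but a mean under 1 FPKM, with 3 red bars for Alox5KO medium and 3 blue bars for WT medium per gene. Axin2 has 19 to 21 reads with Alox5KO medium and 44 to 55 with WT medium, and except for Wnt6 the bars of the other genes overlap or touch between media.

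Among the 14 Wnt genes that passed the test, WT-medium replicate 3 was the WT library nearest to the Alox5KO-medium mean in 10 (71.4%), and Alox5KO-medium replicate 2 the Alox5KO library nearest to the WT-medium mean in 7 of the 14. For all 2551 called genes these shares were 54.0% and 46.1%. All 14 had groups that did not overlap, but they were selected by a test on these same values, so this adds no support.

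Other parts of the pathway were read from lists of 138 further genes, also chosen with earlier results of these data known. Of these genes 91 were tested. Over these lists 22 rose and 8 fell, or 33.0%, against 20.7% of all genes tested, and the median change was 0.10 log2 units. Of 6 tested further receptors and coreceptors 2 rose and 1 fell, or 50% of few genes, against 20.7% of all genes tested. Gpc4, a glypican that binds Wnt ligands at the cell surface, had 57.3 ± 10.6 FPKM with Alox5KO medium and 23.2 ± 6.34 FPKM with WT medium (SD, n = 3 each), a log2 fold change of 1.28 (limma, BH-adjusted p = 0.0032). Adgra2 and Reck together form a coreceptor for Wnt7 ligands. Adgra2 rose by 0.76 and Reck fell by 0.46 on the log2 scale (limma, BH-adjusted p = 0.020 and 0.011). The Adgra2 call was lost without Alox5KO-medium replicate 2, Alox5KO-medium replicate 3, WT-medium replicate 1 or WT-medium replicate 2, at 0.068, 0.075, 0.072 and 0.055 (limma, BH). Ptk7, a polarity coreceptor, had 95.8 ± 19.0 FPKM with Alox5KO medium and 72.1 ± 16.9 FPKM with WT medium (SD, n = 3 each) and passed, among the alternatives run, only without WT-medium replicate 3 or with a replicate block, at 0.035 and 0.025 (limma, BH).

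Among 5 tested further secreted inhibitors Igfbp4 was the single one to pass, or 20%, about the 20.7% called of all genes tested. Igfbp4 rose, with 12.7 ± 1.68 FPKM with Alox5KO medium and 6.88 ± 2.22 FPKM with WT medium (SD, n = 3 each; limma, BH-adjusted p = 0.017). Its call was lost without Alox5KO-medium replicate 1, Alox5KO-medium replicate 3, WT-medium replicate 1 or WT-medium replicate 2, at 0.067, 0.071, 0.063 and 0.053 (limma, BH). Igfbp4 is an insulin-like growth factor binding protein that also binds Frizzled and Lrp6. Cthrc1, a collagen-associated protein of activated fibroblasts that binds Wnt5a and Ror2, had 128 ± 39.4 FPKM with Alox5KO medium and 97.1 ± 1.06 FPKM with WT medium (SD, n = 3 each). Cthrc1 passed, among the alternatives run, only without Alox5KO-medium replicate 2, with a log2 fold change of 0.58 (limma, BH-adjusted p = 0.019). Kremen1, a Dickkopf receptor, had 10.2 ± 1.17 FPKM with Alox5KO medium and 12.8 ± 1.61 FPKM with WT medium, and Dkk4, another Dickkopf, 5.09 ± 1.15 FPKM with Alox5KO medium and 3.70 ± 0.516 FPKM with WT medium (SD, n = 3 each). Neither passed (limma, BH-adjusted p = 0.13 for Kremen1 and 0.18 for Dkk4).

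In the cytoplasmic machinery, of 20 tested genes of the destruction complex and Dishevelled 2 rose and 18 did not pass, or 10% called against 20.7% of all genes tested. Dvl3, a Dishevelled protein that relays the signal from Frizzled, had 19.0 ± 1.31 FPKM with Alox5KO medium and 10.6 ± 0.0653 FPKM with WT medium (SD, n = 3 each; limma, BH-adjusted p = 0.000536). Dvl2, its relative, had 15.1 ± 2.25 FPKM with Alox5KO medium and 11.0 ± 0.776 FPKM with WT medium (SD, n = 3 each; limma, BH-adjusted p = 0.043). The Dvl2 call was lost without Alox5KO-medium replicate 2, Alox5KO-medium replicate 3, WT-medium replicate 1 or WT-medium replicate 2, at 0.068, 0.11, 0.14 and 0.14, and without the filter at 0.079 (limma, BH). Tnks, a tankyrase that marks Axin for breakdown, had 11.2 ± 0.799 FPKM with Alox5KO medium and 8.22 ± 2.05 FPKM with WT medium (SD, n = 3 each) and passed, among the alternatives run, only without WT-medium replicate 3 at 0.0088 (limma, BH). The kinases Csnk1a1 and Gsk3a, which phosphorylate beta-catenin, did not pass (limma, BH-adjusted p = 0.20 and 0.12). Csnk1a1 had 196 ± 4.20 FPKM with Alox5KO medium and 173 ± 4.51 FPKM with WT medium, and Gsk3a 30.9 ± 1.02 FPKM with Alox5KO medium and 26.5 ± 0.895 FPKM with WT medium (SD, n = 3 each).

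Of 19 tested nuclear cofactors 2 rose and 3 fell, or 26.3%, near the 20.7% of all genes tested. Bcl9, which links beta-catenin to its coactivator Pygopus, had 5.02 ± 0.885 FPKM with Alox5KO medium and 9.52 ± 1.08 FPKM with WT medium (SD, n = 3 each; limma, BH-adjusted p = 0.0035). Tle4, a Groucho-type corepressor, had 1.58 ± 0.181 FPKM with Alox5KO medium and 3.80 ± 0.602 FPKM with WT medium (SD, n = 3 each) and also fell (limma, BH-adjusted p = 0.0030). Ctnnbip1, an inhibitor of beta-catenin binding to TCF factors, fell by 0.42 on the log2 scale (limma, BH-adjusted p = 0.020). That call was lost without Alox5KO-medium replicate 1 or WT-medium replicate 1, at 0.056 and 0.10, and with TPM scaling at 0.062 (limma, BH). Ctnnd1, the p120 catenin of cell junctions, rose to 69.2 ± 2.42 FPKM with Alox5KO medium, against 38.7 ± 2.66 FPKM with WT medium (SD, n = 3 each; limma, BH-adjusted p = 0.000312). Tle5, the most abundant cofactor gene of the list, had 259 ± 23.0 FPKM with Alox5KO medium and 243 ± 9.49 FPKM with WT medium (SD, n = 3 each) and did not pass.

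Of 24 tested genes of the planar polarity and calcium branches 7 rose and 1 fell, or 33.3% against 20.7% of all genes tested, at a median change of 0.04 log2 units. Prickle1, a core polarity protein, had 76.7 ± 3.39 FPKM with Alox5KO medium and 20.8 ± 4.04 FPKM with WT medium (SD, n = 3 each), a log2 fold change of 1.85 (limma, BH-adjusted p = 2.18e-05). Daam1, a formin that binds Dishevelled, rose by 1.03, and Nfatc1, a calcium-activated transcription factor, by 1.48 (limma, BH-adjusted p = 0.000353 and 0.00020). Dact2, which binds Dishevelled, had 0.369 ± 0.133 FPKM with Alox5KO medium and 7.11 ± 1.26 FPKM with WT medium (SD, n = 3 each), a log2 fold change of -2.56 (limma, BH-adjusted p = 1.3e-05). It was -3.96 with a pseudocount of 0.1 and -4.24 by limma-voom. The more abundant relatives of Dact2 lay the other way. Dact1 had 21.7 ± 4.37 FPKM with Alox5KO medium and 7.45 ± 3.03 FPKM with WT medium (SD, n = 3 each), and rose by 1.47 (limma, BH-adjusted p = 0.0070). Dact3 had 34.7 ± 8.10 FPKM with Alox5KO medium and 22.2 ± 5.27 FPKM with WT medium (SD, n = 3 each), and did not pass (limma, BH-adjusted p = 0.087). Rhoa, the most abundant gene of this list, had 488 ± 44.0 FPKM with Alox5KO medium and 479 ± 40.1 FPKM with WT medium (SD, n = 3 each) and did not pass.

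Of 16 tested further target genes 7 rose and 3 fell, or 62.5% against 20.7% of all genes tested, a list whose genes also respond to other pathways. A further 12 of the 28 listed lay under the filter and are not in these counts. Of those, Tnfrsf19 (0.513 FPKM with Alox5KO and 1.31 FPKM with WT medium), Ascl2 (0.139 and 0.652 FPKM) and Notum (0.0108 and 0.0477 FPKM) were lower without overlap. None of the 12 was higher without overlap, and several were at or near 0. Ccn5 and Ccn4, secreted matricellular proteins first found as Wnt-induced genes, rose, Ccn5 to 230.1 ± 34.6 FPKM with Alox5KO medium against 39.8 ± 17.1 FPKM with WT medium, and Ccn4 to 31.4 ± 1.78 FPKM with Alox5KO medium against 13.4 ± 2.27 FPKM with WT medium (SD, n = 3 each). Their log2 fold changes were 2.57 and 1.18 (limma, BH-adjusted p = 0.0021 and 0.000270). Jag1, a Notch ligand, rose by 2.11 and Bambi, a decoy receptor of the transforming growth factor family, by 1.32 (limma, BH-adjusted p = 5.51e-06 and 5.49e-05). Cd44, the hyaluronan receptor, had 69.5 ± 3.31 FPKM with Alox5KO medium and 109.5 ± 1.21 FPKM with WT medium (SD, n = 3 each) and fell by 0.65 on the log2 scale (limma, BH-adjusted p = 0.000886).

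**Figure D5:**
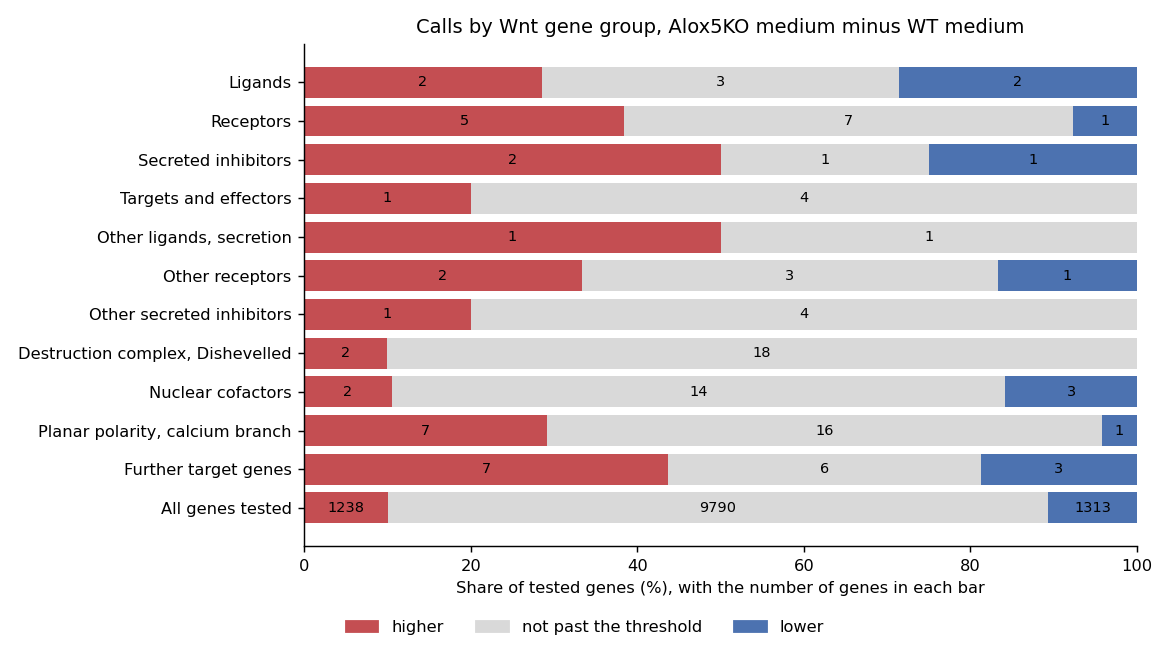
Share of tested genes that rose (red) or fell (blue) with Alox5KO medium (percent, horizontal axis) for the Wnt pathway genes by role, for the lists of further Wnt genes and for all genes tested, with grey for genes not past the threshold and counts in the bars. The secreted inhibitors (75% of only 4 tested) and the further target genes (62.5% of 16) hold the highest shares of called genes. The destruction complex and Dishevelled genes hold the lowest, at 2 of 20. The further secreted inhibitors stand at 20% of 5, about the 20.7% of all genes tested.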

How the data were processed

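RNA was sequenced from 6 samples, 3 per conditioned medium. The deposited table holds FPKM values per gene made by the authors; per the submitters' processing notes they used CASAVA 1.8, fastp, HISAT2 2.0.5, featureCounts 1.5.0-p3 and DESeq2 1.20.0, and named the mouse build mm10. Of the 33682 rows, 32883 carry rat Ensembl identifiers and 0 mouse ones, and positions are those of the table, whose build is not named. The sources used here do not describe how the authors normalized FPKM; the median-of-ratios size factor of every column was 1.01, so the deposited values were already on a common scale. Nor do they state strand-specific counting, and reads of overlapping genes on opposite strands could not be told apart.

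FPKM times gene length was a whole multiple of 1 step per library for 100% of values (within 0.05 reads), which gave reads and depth: 14955850, 15766187 and 15113189 with Alox5KO medium and 14171423, 13284088 and 14389010 with WT medium. In these libraries 3 reads on a gene of 1 kilobase equal 0.185 to 0.228 FPKM, which covers counting error only. Values were tested as log2(FPKM + 1) with limma 3.58.1 in R 4.3.3 (trend and robust empirical Bayes), for genes averaging 1 FPKM or more over the 6 libraries, and adjusted by Benjamini-Hochberg over all of them at 0.05. Fold changes are Alox5KO medium minus WT medium on that scale, which understates changes of low genes. The fit was tested on simulated data. The members and lists were chosen with earlier results of these data known. Beyond the members, the text names up to 4 genes of each further Wnt list with the smallest p and its most abundant gene. Of the cell type markers, Tnnt2, Tagln, Aldh1a2 and Cpa3 are named as the most abundant of their lists. The markers Dcn, Myl2, Acta2, Kcnj8, Abcc9, Rgs5, Wt1, Tbx18, Lrrn4, Tpsb2, Fcer1a and Ms4a2 were named after their values were seen. The same holds for Dact1, Dact3, Tnfrsf19, Ascl2 and Notum of the further Wnt lists. Alternatives were pseudocounts of 0.1 and 0.5, no filter, a filter at 5 FPKM, quantile, TPM and median-of-ratios scaling, a replicate block, limma-voom on reads and leaving out each library; fits of members under the filter were added after seeing the data. No sequences were used.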

Additional observations from a re-analysis of the deposited data

How the results depend on the processing

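Of the 14 calls among the Wnt genes, 11 held in each alternative that changed a single choice and tested them: Wnt2, Wnt5a, Rspo1, Rspo3, Fzd2, Fzd6, Fzd7, Lgr4, Sfrp1, Dkk3 and Nkd2. Fzd3, Lrp6 and Sfrp4 lost theirs in at least 1 alternative, and no called gene changed direction. With the filter dropped and a library left out together, further calls were lost: Wnt5a without Alox5KO-medium replicate 1 or 3 or WT-medium replicate 2 or 3, Fzd2 without Alox5KO-medium replicate 1 or 3 or WT-medium replicate 1 or 2, Fzd7 without Alox5KO-medium replicate 1 or 3 or WT-medium replicate 1 or 3, and Dkk3 without Alox5KO-medium replicate 3 or WT-medium replicate 1. Their highest BH-adjusted limma p were 0.091 for Wnt5a, 0.096 for Fzd2, 0.13 for Fzd7 and 0.051 for Dkk3. The number of Wnt genes that rose was 8 to 12 and the number that fell 3 to 4 with 1 library left out, and over all genes tested 791 to 1226 rose and 862 to 1325 fell, the lowest of each without WT-medium replicate 1. With a mean of at least 5 FPKM required, 17 of the Wnt genes were tested, of which 9 rose and 2 fell, beside 964 rises and 1057 falls among 8686 genes, and Wnt2 and Rspo3 lie under that level. The counts of rises and falls were 11 and 3 with TPM scaling, 12 and 4 with quantile normalization and 13 and 4 by limma-voom. TPM scaling moved the median log2 fold change of all genes by 0.06, and all genes called were then 1362 higher and 1082 lower. The signs of the uncalled Wnt9a, Fzd1, Ryk and Nkd1 turned with 1 library left out. The replicate numbers were not shown to pair the samples, as the correlations of same-numbered deviations were -0.096, 0.10 and 0.17. With the replicate block 11 of the Wnt genes rose and 4 fell, Wnt4 being added, and over all genes 1277 rose and 1375 fell. Depth limits the 9 Wnt genes with reads under the filter, whose values rest on 0 to 56 reads per library.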
